A study of Mus musculus with 2 samples.

Results

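The 41 genes described here are the listed ligands, receptors, SMAD proteins, antagonists and latent binding proteins of the TGF-beta and BMP pathways, chosen by gene symbol. All 41 were found among the 43346 genes of the gene tables: 11 ligands, 12 receptors and co-receptors, 8 SMADs, 6 antagonists and 4 latent binding proteins. The tissue was mouse mammary gland from C57BL/6J animals, an inbred strain, aged 8 weeks, with littermates of both sexes pooled. Poly(A) RNA was sequenced in 2 libraries, labelled biological replicates 1 and 2 of 1 group, and the labels do not say how the animals were divided between them. They give no contrast, so no p-value is given, and a mean ± SD over the 2 replicates is a description only.

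TGF-beta and BMP ligands are secreted dimers that bring together a type II and a type I serine/threonine kinase receptor. The type I receptor phosphorylates receptor SMADs, SMAD2 and SMAD3 for TGF-beta and activins and SMAD1, SMAD5 and SMAD9 for BMPs, which enter the nucleus with SMAD4. Secreted antagonists trap BMPs or activins, and latent TGF-beta binding proteins hold TGF-beta in the matrix until it is released. In the mammary gland the TGF-beta branch is known as a restraint on ductal growth, and in endothelium ENG and ACVRL1 serve signalling by circulating BMPs.

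Levels are in TPM, a unit of transcripts set per length and per library, as the authors deposited them. The genes of replicate 1 summed to 56323489 expected counts and those of replicate 2 to 42400470, so the floor of 3 counts used here equals 0.0533 CPM and 0.0708 CPM. All 8 luminal epithelial, 8 white adipocyte, 8 endothelial, 8 fibroblast and 7 macrophage markers had a mean of 1 TPM or more. The luminal markers summed to 989 TPM in replicate 1 and 1900.0 TPM in replicate 2, and the endothelial markers to 679 and 653 TPM. Skeletal muscle markers took 2.91% of all TPM in replicate 1 and 0.00138% in replicate 2, with all 10 genes higher in replicate 1. Other marker lists also differed: skin keratinocyte markers summed to 119 TPM in replicate 1 and 18.3 TPM in replicate 2, brown adipocyte markers to 2011 and 653 TPM, T cell markers to 162 and 324 TPM, and B cell markers to 835 and 1277 TPM. By counts scaled to library totals, 7 of 8 luminal, 5 of 7 T cell and 5 of 6 B cell markers were higher in replicate 2. With the GC trend described below removed, the median log2 count ratio of the luminal markers, replicate 1 over replicate 2, moved from -0.87 to -0.33. For T cell markers it moved from -0.6 to -0.9, and for B cell markers from -0.36 to -0.38. Of 7 brown adipocyte markers with a mean of 1 TPM, 6 were higher in replicate 1. In the T cell sum, Tcf7 alone stood at 62.3 and 176 TPM. The part of these cells in the differences between the replicates given below was not tested. In bulk RNA, fewer cells of a type and less RNA per cell cannot be told apart.

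Most members were expressed in both libraries. Of the 41 members, 35 stood at 1 TPM or more in both replicates, or 85.4%, against 31% of all 43346 genes. That share is not a like background. The members are all protein-coding, whereas the 43346 hold genes of every type and 20896 without a count in either replicate. The 6 other members were Tgfb2, Bmp5, Inhba, Bmpr1b, Smad9 and Nog. Tgfb3, Bmp4, Bmp6, Acvr1, Acvr2a, Eng, Chrd and Ltbp3 overlap a protein-coding gene on the opposite strand, and whether the counting separated the strands is not stated. Together the members took 0.102% of all TPM in replicate 1 and 0.161% in replicate 2. The highest by mean level were Eng, Ltbp4, Tgfbr2, Ltbp3 and Fstl1, and 8 genes were among the top 10 members in both replicates. The order of the members was alike in the replicates (Spearman rho of TPM 0.924 across the 41 genes, which share both libraries and are not independent). Neighbours in that order were mostly not separated: of 40 adjacent pairs by mean TPM, the 2 replicate ranges were clear of each other in 4, below Smad3, Smad2, Acvr2a and Nog.

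**Figure D1:**
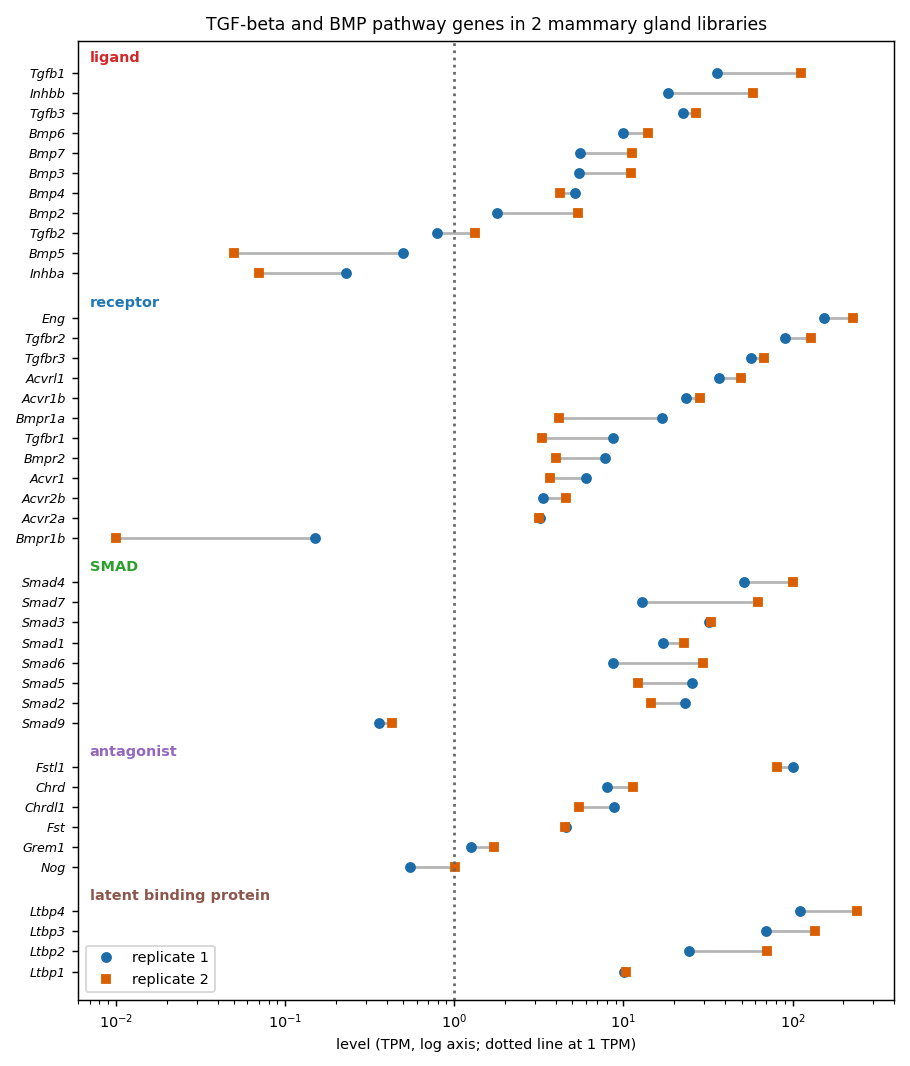
Level of each of the 41 members in TPM on a log axis, by class and ordered by mean within a class, with replicate 1 as circles and replicate 2 as squares joined by a grey line, and a dotted line at 1 TPM. Eng and Ltbp4 lie furthest right, above 100 TPM in both replicates, while Bmp5, Inhba, Bmpr1b and Smad9 lie left of the dotted line in both.

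The transcript of Tgfbr2, the type II receptor for TGF-beta, is shown first because both of its coding forms were abundant and they differ by 1 stretch. Transcript Tgfbr2-202 holds 75 coding bases, or 25 codons, that Tgfbr2-201 lacks, at coding bases 95 to 169. They lie within 1 exon on chr9:116158271-116158345, minus strand, of mm10. Sequences are from GENCODE M21 transcripts on that build, 5′ to 3′, and the capitals mark the bases missing from Tgfbr2-201.
Tgfbr2-202: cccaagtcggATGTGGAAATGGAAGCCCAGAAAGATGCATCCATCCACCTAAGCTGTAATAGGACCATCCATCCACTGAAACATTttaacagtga

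Tgfbr2-202 took 37.7% of the gene's TPM in replicate 1 and 26.7% in replicate 2, and Tgfbr2-201 the remaining 62.3% and 73.3%. In estimated counts this was 6707 and 4839 for the form with the stretch, and 10885 and 13053 for the form without it. The shorter form was the more abundant in both libraries. The 2 transcripts differ by 75 bases in length in the deposited tables too, and the percentages are the authors' estimates, since a fragment outside that stretch cannot be assigned to 1 form.

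Ltbp1, which stores latent TGF-beta in the matrix and is known in a long and a short form with separate starts, is shown because the balance of the forms differed most between the libraries among the genes with named transcripts and the same leading transcript. Both coding sequences share their first 4 and last 2840 bases. Between these lie 2295 bases in the long Ltbp1-201 and 1182 in Ltbp1-202. Their genome ranges overlap, and bases shared within these stretches were not counted. These stretches lie in the exons of chr17:75005890-75276551 and chr17:75178986-75274031, plus strand. The first bases of each are printed, and the capitals mark where they part.
Ltbp1-201: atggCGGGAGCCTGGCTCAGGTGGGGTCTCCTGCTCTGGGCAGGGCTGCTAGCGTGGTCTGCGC
Ltbp1-202: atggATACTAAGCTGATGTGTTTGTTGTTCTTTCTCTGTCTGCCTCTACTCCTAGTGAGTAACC

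The long form took 49.9% of Ltbp1 TPM in replicate 1 and 86.4% in replicate 2. The short form took 31.5% and 8.73%, from 639 and 129 estimated counts. The long form thus led in both libraries, by a wider margin in replicate 2.

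Smad1, a receptor SMAD of the BMP branch, is shown because its forms end differently, and receptor SMADs are phosphorylated by type I receptors at their last serines. Both forms share their first 1255 coding bases. They then part into chr8:79339650-79339791 for Smad1-202 and chr8:79343622-79343652 for Smad1-203, minus strand. The lines begin 10 bases before that point, and the capitals mark what is not shared.
Smad1-202: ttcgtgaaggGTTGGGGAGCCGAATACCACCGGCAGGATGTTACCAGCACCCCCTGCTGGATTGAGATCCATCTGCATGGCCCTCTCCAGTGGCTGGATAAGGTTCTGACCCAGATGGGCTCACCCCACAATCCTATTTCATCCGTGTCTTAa
Smad1-203: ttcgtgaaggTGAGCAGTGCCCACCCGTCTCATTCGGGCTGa

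Smad1-202, the longer coding sequence, took 89.6% of the gene's TPM in replicate 1 and 92.8% in replicate 2. Smad1-203 took 9.25% and 7.2%. The form with the longer end was the main one in both libraries.

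The remaining named transcripts gave the following shares. Eng-201 and Eng-205 differ by 3 coding bases, CAG at coding bases 68 to 70 (chr2:32657516-32657518, plus strand), and took 57.2% and 14.1% in replicate 1 and 68.4% and 19.1% in replicate 2. Tgfb1-201 took 96.2% in replicate 1 and 99.2% in replicate 2, and the second transcript, a retained intron, 3.77% and 0.61%. Tgfb3 had 1 transcript in the tables. Smad3-201 took 61.8% in replicate 1 and 51.6% in replicate 2, followed by Smad3-205 at 25.1% and 30.9%. Smad5-201 took 71.1% and 92.5%, followed by the retained intron Smad5-206 at 28.3% in replicate 1 and 5.22% in replicate 2. Across these genes the leading form was shared by the replicates.

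Acvr2b and Tgfb2 lay under the 5 TPM set for naming transcripts, and were chosen after their values were seen because their forms also differ by a cassette of whole codons. Acvr2b-202, of an activin type II receptor, has 24 coding bases that Acvr2b-201 lacks (chr9:119428201-119428224, plus strand). Tgfb2-206 has 84 that Tgfb2-201 lacks (chr1:186690721-186690804, minus strand). In both lines the capitals mark the added bases.
Acvr2b-202: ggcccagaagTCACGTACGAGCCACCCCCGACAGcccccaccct
Tgfb2-206: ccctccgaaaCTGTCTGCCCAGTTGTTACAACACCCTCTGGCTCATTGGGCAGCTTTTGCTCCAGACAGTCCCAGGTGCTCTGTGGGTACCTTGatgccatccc

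The form with the cassette took 66.8% of Acvr2b TPM in replicate 1 and 76.2% in replicate 2, from 144 and 158 estimated counts. For Tgfb2 it took 53.6% and 72.3%, from 60 and 96 counts. In both genes the form with the added bases led in each library by TPM, and for Tgfb2 by counts in replicate 2 only.

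Among the 19 members that had several transcripts and reached 5 TPM in each replicate, 14 had the same leading transcript in both. The like share over all genes was not computed, so whether this count is usual for these libraries is not known. The 5 with different ones were Tgfbr3, Smad2, Smad7, Chrdl1 and Ltbp2, of which Smad7, Chrdl1 and Ltbp2 are named for that difference. In Smad2, Smad2-203 took 66.7% in replicate 1 and 5.96% in replicate 2, while Smad2-202 took 0% and 58.7%. In Tgfbr3, the coding Tgfbr3-201 took 58.7% in replicate 1 and 44% in replicate 2, and the retained intron Tgfbr3-204 took 38.8% and 53.8%. In Ltbp2, the full-length Ltbp2-201 took 70.3% in replicate 1 and 33.9% in replicate 2, and Ltbp2-206, of 614 bases, took 19.2% and 57.6%. Counted in fragments, Ltbp2-201 held 86.7% and 74.7%, so the short transcript led in TPM and not in counts. By counts the leading transcript was the same in both replicates for 3 of the 5, Ltbp2, Tgfbr3 and Smad7, with Tgfbr3-201 at 88.2% and 80.4% and Smad7-201 at 52.6% and 72.5%.

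**Figure D2:**
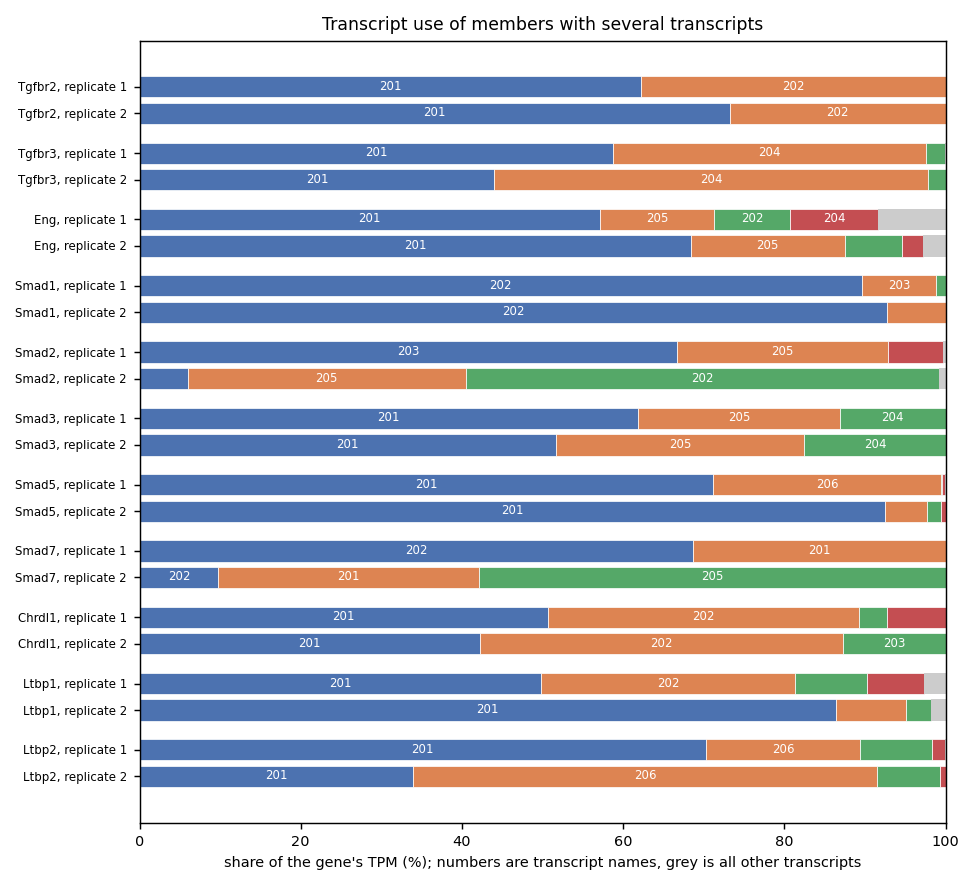
Share of a gene's TPM taken by each of its leading transcripts, in percent, for 11 members, with replicate 1 above replicate 2 and transcript numbers written in the bars. Tgfbr2, Eng, Smad1, Smad3, Smad5 and Ltbp1 keep the same first (blue) transcript as the largest in both libraries, while in Tgfbr3, Smad2, Smad7, Chrdl1 and Ltbp2 another colour is largest in replicate 2.

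Among the ligands, Tgfb1 was the highest and also one of those that differed most between the replicates. Tgfb1 (chromosome 7, 25687002 to 25705077, mm10) stood at 35.8 TPM in replicate 1 and 112 TPM in replicate 2 (74.1 ± 54.2, SD, n = 2). Tgfb3 stood at 22.4 TPM and 26.7 TPM, and Tgfb2 at 0.79 and 1.33 TPM, so the order Tgfb1, Tgfb3, Tgfb2 held in both libraries. The ratio of Tgfb1 to Tgfb3 in TPM was 1.6 in replicate 1 and 4.21 in replicate 2.

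Inhbb encodes the beta B subunit of activins and inhibins and stood at 18.4 TPM in replicate 1 and 58.5 TPM in replicate 2. Inhba, the beta A subunit, stood at 0.23 and 0.07 TPM, from 13 counts and 3 counts. The B subunit was 80.1 times the A subunit in replicate 1, and in replicate 2 the A subunit was at the floor of detection.

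Of the BMP ligand genes, Bmp6 was the highest, at 9.99 TPM in replicate 1 and 14.1 TPM in replicate 2. Bmp7 stood at 5.57 and 11.3 TPM, and Bmp3, which is known to oppose other BMPs, at 5.47 and 11.1 TPM. Bmp4, known for its part in early mammary bud formation, stood at 5.17 and 4.24 TPM. The replicate ranges of Bmp6, Bmp7 and Bmp3 overlapped, and that of Bmp4 lay just under them. Bmp2 was lower, at 1.8 TPM in replicate 1 and 5.38 TPM in replicate 2. Bmp5 was near absent, at 0.5 and 0.05 TPM from 78 and 6 counts.

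The receptors held the largest summed level of the 5 classes, at 406 TPM in replicate 1 and 524 TPM in replicate 2 (465 ± 83.3, SD, n = 2). Most of it came from co-receptors and Tgfbr2. Eng encodes endoglin, a co-receptor of endothelial cells (chromosome 2, 32646595 to 32682669), and stood at 153 TPM in replicate 1 and 227 TPM in replicate 2. Tgfbr2 stood at 90.1 and 129 TPM, and Tgfbr3, the co-receptor betaglycan, at 56.8 and 67.4 TPM. Tgfbr1, the type I receptor that TGFBR2 activates, stood at 8.64 TPM in replicate 1 and 3.29 TPM in replicate 2. Type II thus exceeded type I for TGF-beta by 10.4 times in replicate 1 and 39.2 times in replicate 2.

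Among the other type I receptors, Acvrl1, the ALK1 receptor of endothelium, stood at 36.9 TPM in replicate 1 and 49.8 TPM in replicate 2. Acvr1b, the activin receptor ALK4, stood at 23.6 and 28.4 TPM. Bmpr1a, a BMP receptor, stood at 16.8 TPM in replicate 1 and 4.19 TPM in replicate 2. Its paralogue Bmpr1b stood at 0.15 and 0.01 TPM, from 18 and 1 counts, so Bmpr1a carried nearly all of the signal for the pair. Acvr1, the BMP receptor ALK2, stood at 6 TPM and 3.68 TPM.

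The type II receptors other than Tgfbr2 were all low. Bmpr2 stood at 7.84 TPM in replicate 1 and 4 TPM in replicate 2, Acvr2b at 3.36 and 4.56 TPM, and Acvr2a at 3.21 and 3.18 TPM. Their replicate ranges overlapped or nearly touched, and all 3 lay far under Tgfbr2 in both libraries.

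The SMAD class summed to 172 TPM in replicate 1 and 277 TPM in replicate 2. Smad4, the partner of all receptor SMADs, was the highest as a gene, at 51.8 TPM and 101 TPM. Short processed transcripts without a coding sequence, Smad4-205 and Smad4-204, took 63.2% and 6.8% of it in replicate 1 and 61.8% and 21.5% in replicate 2. Its protein-coding transcripts summed to 15.6 TPM in replicate 1 and 14.1 TPM in replicate 2, under the level of Smad3. Tgfbr3 was the other member with under 50% of its TPM on protein-coding transcripts in a replicate, at 61.1% in replicate 1 and 46.1% in replicate 2. The log2 count ratio of Smad4 was smaller than its TPM gap, at -0.44, as its effective length was estimated at 1199 bases in replicate 1 and 879 in replicate 2. Of the TGF-beta SMADs, Smad3 stood at 31.9 and 33.0 TPM and Smad2 at 23.3 and 14.5 TPM. As a gene, Smad3 was above Smad2 in both. Smad3-205, of 744 bases, took 25.1% of Smad3 TPM in replicate 1 and 30.9% in replicate 2. Smad3-204, of 466 bases, took 13.1% and 17.5%. The rest of Smad3 TPM, on Smad3-201, lay under Smad2 in replicate 1 and above it in replicate 2. The order of the 2 genes thus rests on these short transcripts in replicate 1. Of the BMP SMADs, Smad1 stood at 17.2 and 22.9 TPM, Smad5 at 25.5 and 12.3 TPM, and Smad9 at 0.36 and 0.43 TPM. Smad5 exceeded Smad1 in replicate 1 and Smad1 exceeded Smad5 in replicate 2, so their order is not settled by these libraries.

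The inhibitory SMADs were the SMADs that differed most between the replicates by counts scaled to library totals. With the GC trend described below removed, the log2 count ratio was -1.31 for Smad7 and -0.66 for Smad6, against -0.69 for Smad4. Smad7, which blocks type I receptors and is itself induced by TGF-beta, stood at 12.9 TPM in replicate 1 and 62.8 TPM in replicate 2 (1344 and 3498 counts). Smad6, its counterpart in the BMP branch, stood at 8.71 TPM and 29.6 TPM (1037 and 2509 counts). As a gene, Smad7 was above Smad6 by TPM in both. In replicate 2, 57.9% of Smad7 TPM lay on Smad7-205, a transcript of 793 bases with 18.5% of the gene's counts. The rest of Smad7 TPM lay under Smad6 in replicate 2, so the order there rests on that transcript.

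The antagonists were led by Fstl1, a follistatin-like secreted protein, at 100 TPM in replicate 1 and 80.7 TPM in replicate 2. Follistatin itself, Fst, which binds activins, stood at 4.57 and 4.52 TPM. Chrd, the BMP antagonist chordin, stood at 7.99 and 11.4 TPM, and Chrdl1, a chordin-like antagonist, at 8.75 and 5.5 TPM. The other BMP antagonists were low, with Grem1 at 1.26 and 1.71 TPM and Nog, noggin, at 0.55 and 1.01 TPM. Fstl1 took most of the class sum of 124 TPM in replicate 1 and 105 TPM in replicate 2, and this was the only class whose sum was higher in replicate 1.

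The latent TGF-beta binding proteins summed to 215 TPM in replicate 1 and 458 TPM in replicate 2. Ltbp4 (chromosome 7, 27305136 to 27337692) stood at 111 and 241 TPM, and Ltbp3 at 69.6 and 136 TPM. Ltbp2, which is known not to bind latent TGF-beta, stood at 24.3 and 70.3 TPM, and Ltbp1 at 10.1 and 10.3 TPM. The order Ltbp4, Ltbp3, Ltbp2, Ltbp1 held in both libraries, and all 4 had a lower scaled count in replicate 1. With the GC trend removed the log2 count ratio was 0.07 for Ltbp2 and 0.03 for Ltbp4, and it stayed below 0 for Ltbp1 and Ltbp3. For Ltbp2 the effective length was estimated at 5317 bases in replicate 1 and 2979 in replicate 2, and its log2 count ratio of -0.62 was smaller than its log2(TPM + 1) difference of -1.49.

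The difference between the replicates was measured as the log2 ratio of replicate 1 over replicate 2, from rounded expected counts scaled by total counts. A gene was called beyond 2-fold where the whole 95% Clopper-Pearson interval, which covers counting error only, lay beyond 2-fold. A mean of 1 TPM was required, which 36 members passed. Of these, 8 were beyond 2-fold, or 22.2%, against 18.2% of 14510 genes with the same filter, a share near the background. Higher in replicate 1 were 2 of 36, or 5.56%, against 9.43% of all genes, and lower in replicate 1 were 6 of 36, or 16.7%, against 8.73%. The median log2(TPM + 1) difference, replicate 1 minus replicate 2, was -0.37 over the members and -0.05 over all genes with that filter. With the GC trend described below removed, the median over the members was -0.19.

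The 2 genes higher in replicate 1 were both type I receptor genes. Bmpr1a had a ratio of 1.78 (interval 1.64 to 1.92), from 2402 and 526 counts, and Tgfbr1 a ratio of 1.23 (1.09 to 1.37), from 1668 and 535 counts. Bmpr2 lay at the limit and was not called, at 1.01 (0.93 to 1.1).

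The 6 lower in replicate 1 were 3 ligands, both inhibitory SMADs and a latent binding protein. Smad7 had a ratio of -1.79 (-1.88 to -1.7), Smad6 of -1.68 (-1.79 to -1.58) and Tgfb1 of -1.61 (-1.67 to -1.54). Inhbb had a ratio of -1.59 (-1.65 to -1.53), Bmp2 of -1.5 (-1.71 to -1.28) and Ltbp4 of -1.08 (-1.11 to -1.06). With totals that leave out mitochondrial and skeletal muscle genes Ltbp4 was no longer called and Bmpr2 was, and with DESeq2 size factors Tgfbr1 was no longer called. Scaled by total counts, none of the 5 antagonists that passed the filter was called in either direction, and with spike-in totals 1 was. Among the 5 members under the filter, Bmp5 had a ratio of 3.29 (2.1 to 4.78) and Bmpr1b one of 3.76 (1.1 to 9.14), both from few counts.

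Scaled counts and TPM gave opposite directions for 2 of the 36 members, both with small differences. Tgfbr3 had a log2 count ratio of 0.11 and a log2(TPM + 1) difference of -0.24, and Smad3 of 0.26 and -0.04. In both genes the effective length was shorter in replicate 2.

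Guanine and cytosine (GC) content moved with these ratios, in the members and in all genes. Across the 36 members the Spearman rho of the GC percent of the longest annotated transcript with the log2 count ratio was -0.669, and across 14439 genes it was -0.539. These are descriptions over genes that share the same 2 libraries. Of 16 members under 50% GC, 11 were higher in replicate 1, with a median ratio of 0.26, and the 2 calls were higher in replicate 1. Of 20 members at 50% GC or more, 2 were higher in replicate 1, with a median ratio of -0.52, and the 6 calls were lower in replicate 1.

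With the median ratio of genes of like GC content removed, 4 members were called, or 11.1%, against 11.7% of all genes. All 4 were lower in replicate 1. They were Tgfb1 at -1.55 (-1.62 to -1.49), Bmp2 at -1.45 (-1.67 to -1.23), Smad7 at -1.31 (-1.4 to -1.21) and Bmp3 at -1.55 (-1.7 to -1.41), of which 3 were also called before. The ratio fell to 0.38 for Tgfbr1 and 0.96 for Bmpr1a, and it moved to -0.56 for Inhbb, -0.66 for Smad6 and 0.03 for Ltbp4. Whether GC content accounts for the differences was not tested.

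Other genes of the pathway, taken from 6 lists, were measured by the same rule. Of 91 genes listed, 90 were found and 70 passed the filter. Of these, 20 were beyond 2-fold, or 28.6% against the background of 18.2%. Higher in replicate 1 were 4, or 5.71% against 9.43% of all genes, and 16 were lower, or 22.9% against 8.73%. With totals that leave out mitochondrial and skeletal muscle genes, 11 were called, or 15.7% against 19.8% of all genes under that scaling. The calls then numbered 1 among the extracellular modulators, 1 among the genes for release and storage of latent TGF-beta, 2 among the intracellular regulators and 2 among the target genes. With the GC trend removed, 14 of the 70 were called, or 20% against 11.7% of all genes. Of the 20 called by total counts, Bmp8a, Gdf15, Nbl1, Htra1, Emilin1, Furin, Zfyve16, Pmepa1, Id1 and Msx1 were then no longer called.

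The further ligands passed the filter in 9 of 21 genes, with 1 higher and 3 lower in replicate 1. These 4 calls were 44.4% of the 9, against 18.2% of all genes. Gdf10, a relative of Bmp3, was the highest, at 32.9 TPM in replicate 1 and 72.6 TPM in replicate 2, and was not called, at a ratio of -1.06 (-1.12 to -1). Inha, the inhibin alpha subunit, stood at 7.55 and 15.8 TPM, and Lefty1, an antagonist of nodal, at 3.86 and 14.4 TPM. Those called lower in replicate 1 were Bmp8a, the stress-induced Gdf15 and Amh, the anti-Müllerian hormone gene, at 1.44 and 4.95 TPM, 0.97 and 4.45 TPM, and 0.35 and 2.87 TPM.

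Mstn, the muscle growth inhibitor myostatin, was listed at 16.6 TPM in replicate 1, from 1782 counts, and at 0 in replicate 2. Hfe2, the BMP co-receptor hemojuvelin, which skeletal muscle expresses, stood at 98.5 TPM in replicate 1 and 0.63 TPM in replicate 2. All 10 skeletal muscle markers were higher in replicate 1 as well, as given above, and their part in these differences was not tested.

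In the list of further receptors and co-receptors, Hfe2 was the 1 gene called of 7, or 14.3% against 18.2% of all genes. Rgma and Rgmb, the other members of the repulsive guidance family of BMP co-receptors, stood at 31.3 and 51.3 TPM and at 27.6 and 46.6 TPM. Of 11 extracellular modulators, 2 were called, or 18.2%, the same share as over all genes, and both were lower in replicate 1. Htra1, a secreted protease gene, stood at 111 TPM in replicate 1 and 287 TPM in replicate 2. Nbl1, a BMP antagonist, stood at 78.2 and 176 TPM. With the GC trend removed 0 of the 11 were called, with log2 count ratios of -0.87 for Htra1 and 0.01 for Nbl1. Bmp1, a protease that cleaves chordin, stood at 48.3 and 62.9 TPM and was not called.

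Genes that release or store latent TGF-beta were called in 3 of 10, or 30% against 18.2% of all genes. Itgb6, the beta 6 chain of an integrin that activates latent TGF-beta, was higher in replicate 1, at 4.44 TPM and 2.23 TPM. Its log2 count ratio was 2.0 (1.69 to 2.32) and its log2(TPM + 1) difference 0.75. The effective length of Itgb6 was estimated at 2769 bases in replicate 1 and 1457 in replicate 2. Furin, the protease that cleaves the TGF-beta precursor, stood at 55.2 and 119 TPM and Emilin1, which holds back that cleavage, at 21.1 and 43.3 TPM, both lower in replicate 1. Itgb5, the integrin beta 5 chain, at 73.9 and 81.9 TPM and Nrros, which tethers latent TGF-beta on macrophages, at 58.1 and 87 TPM were not called.

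Intracellular regulators passed the filter in 18 of 18 genes and were called in 4, or 22.2% against 18.2% of all genes. Zfyve16, an endosomal protein, was higher in replicate 1, at 4.8 TPM and 1.88 TPM. Pmepa1, a TGF-beta-induced inhibitor of receptor SMADs, was lower in replicate 1, at 54.9 and 169 TPM, as were Strap, which works with SMAD7 at the receptor, at 16.1 and 45 TPM, and Lemd3, a nuclear membrane inhibitor of receptor SMADs, at 2.4 and 6.12 TPM. Fkbp1a, whose protein binds type I receptors, stood at 114 and 73.8 TPM, and Ski, a SMAD corepressor, at 44.6 and 93.2 TPM, and neither was called.

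Of 15 target genes, 6 were lower in replicate 1 and 0 were higher, or 40% against the background of 18.2%. Id1, a BMP target, stood at 93.1 TPM in replicate 1 and 212 TPM in replicate 2, with a ratio of -1.09 (-1.16 to -1.03). Its relative Id4 stood at 2.78 and 12.5 TPM, and the cell cycle inhibitor gene Cdkn2b at 6.84 and 27.4 TPM. Ctgf, a matricellular TGF-beta target, stood at 28.5 and 61.1 TPM, and the homeobox BMP targets Msx1 and Msx2 at 8.13 and 19.2 TPM and at 6 and 15.5 TPM. Id3, the highest, stood at 211 and 452 TPM with a ratio of -0.95 (-0.98 to -0.91), and Tgfbi, the TGF-beta-induced matrix gene, at 72.5 and 67.1 TPM, and neither was called. With the GC trend removed, 5 of the 15 were called, or 33.3% against 11.7% of all genes, all lower in replicate 1. With totals that leave out mitochondrial and skeletal muscle genes, 2 of the 15 were called, or 13.3% against 19.8%.

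**Figure D3:**
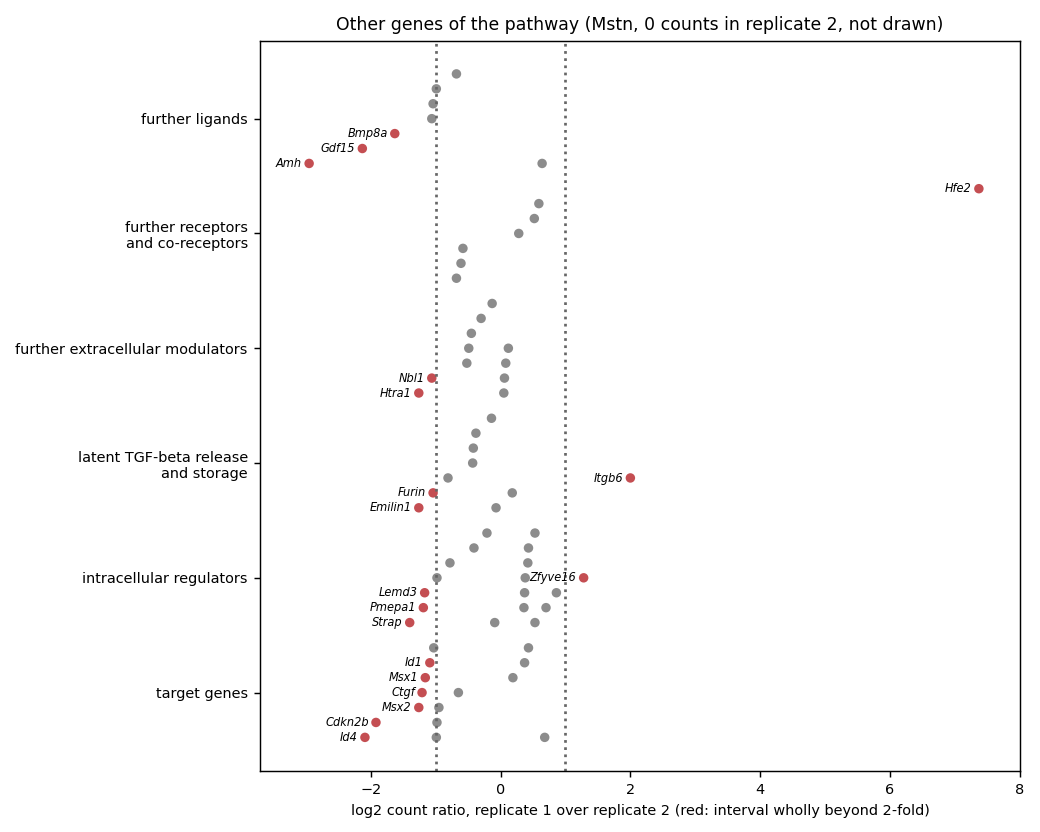
Log2 count ratio of replicate 1 over replicate 2 for other pathway genes with a mean of 1 TPM or more, by list, with red points and names where the 95% counting interval was wholly beyond 2-fold and dotted lines at 2-fold. Mstn, called higher in replicate 1, has 0 counts in replicate 2 and so no ratio to draw. Of the genes drawn, Hfe2 stands apart at 7.37, and the 6 called target genes all lie left of the lower line.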

How the data were processed

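Values come from the tables of genes and of transcripts that the authors deposited, on mm10 with GENCODE M4 per the text notes beside them. Per the file headers they hold the expected count, TPM and FPKM of each gene and transcript, posterior mean values, and the percent of a gene's TPM taken by each transcript, all deposited by the authors. Which aligner and quantifier were used is not given in the sources used here. Per the labels the libraries were stranded, but whether the counting used strand is not stated. An annotated gene on the opposite strand overlaps 18 members, 8 of them by a protein-coding gene, and reads from such a pair may not be told apart.

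The members and the gene lists were chosen with earlier results of these data known. Expected counts were rounded to whole numbers for ratios and their 95% Clopper-Pearson intervals, and 97 spike-in entries and 26248 entries named by a number, all at 0 counts, were kept out of gene totals. The difference in TPM used log2(TPM + 1). Names, coordinates, GC percent and sequences came from GENCODE M21, a later release on the same build, which named 42462 of 43346 genes. The GC trend was the median ratio in 20 bins of GC content, interpolated between bin medians and held at the end values. All 41 members are named, with the 3 highest genes and the called ones of each other list, and the 2 leading transcripts of a preset list of members at 5 TPM in both replicates. Gdf1, listed among the ligands, did not match the tables by name. The alternatives were other scalings (edgeR TMM, DESeq2 size factors, spike-in totals, totals without mitochondrial and muscle genes), filters, pseudocounts and units. The ratio and its calls were run on simulated counts with counting error only, which checks the calculation and not the calls in these libraries. Software was Python 3.11.15 (scipy 1.17.1, pandas 2.3.3, numpy 2.4.6, matplotlib 3.10.9) and R 4.3.3 (DESeq2 1.42.0, edgeR 4.0.16).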

Additional observations from a re-analysis of the deposited data

How the results depend on the processing

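The count of 8 members beyond 2-fold was 4 with the GC trend removed and 16 when scaled by spike-in totals, where all 16 were lower in replicate 1, or 44.4% against 33.8% of all genes under that scaling. The count of 20 other pathway genes was 40 with spike-in totals, or 57.1%, and 11, or 15.7% against 19.8% of all genes, with totals that leave out mitochondrial and skeletal muscle genes. These scalings move the median log2 ratio of all genes, 0.06 by total counts, to -0.71 and 0.23, and DESeq2 size factors move it to -0.07. Under totals without mitochondrial and muscle genes the members split into 3 higher and 5 lower in replicate 1, or 8.33% and 13.9%. The other pathway genes then split into 4 and 7, or 5.71% and 10%, and all genes into 13.6% and 6.17%. With DESeq2 size factors the members split into 1 higher and 6 lower, or 2.78% and 16.7%, against 7.25% and 11.2% of all genes. With spike-in totals the other pathway genes split into 2 and 38, or 2.86% and 54.3%, against 2.94% and 30.9% of all genes. The median difference of the members was -0.19 with the GC trend removed, against -0.37, and -0.42 to -0.26 under its other alternatives. With the GC trend removed, Ltbp4 had a log2 count ratio of 0.03, the 1 called member whose sign changed, and 8 of the 41 members changed sign in all, Ltbp2, Bmp6, Acvrl1, Tgfbr3, Acvr2a, Chrdl1 and Fst being the others. With DESeq2 size factors 3 changed sign, with TMM factors 0 and with TPM ratios 2. The count of members expressed in both replicates was 34 to 39 under its alternatives. Leaving out 1 of 2 replicates returns the other's class sum, from 106 to 245 TPM for ligands and from 215 to 458 TPM for latent binding proteins, so it is no check of those sums.

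The 2 libraries give no replicate behind either value, so the 2-fold counts could not be recomputed with a library left out. Depth limits Inhba, Bmpr1b and Bmp5, at 3, 1 and 6 counts in replicate 2. No paired analysis was possible because there is 1 group.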
